A study of Arabidopsis thaliana with 3 samples.

Results

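Star and other-arm strands of miRNA duplexes were taken as every row of the Col count file whose name ends in *, -3p or -5p. There were 48 such rows among 328, of which 10 end in * and 38 in -3p or -5p. Each * row was paired with the unmarked row of the same miRNA, called the guide here, and each -3p row with its -5p row, which gave 10 star pairs and 19 pairs of a 3p and a 5p row. The names alone chose the rows, and no read count was used. In a star pair the ratio is star reads over guide reads. In the other pairs it is 3p reads over 5p reads, since their names do not say which strand is the star.

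The series asks how the miRNA population of the cdf2 mutant, and of dcl1-9, differs from that of the wild type. Small RNAs were sequenced from seedlings that were 22 days old, in the cdf2 mutant, in the dcl1-9 mutant and in the wild type, all of ecotype Col, grown in soil under 16 hours of light and 8 hours of dark with no treatment. CDF2 is a Dof-type transcription factor, and dcl1-9 makes a truncated DCL1 without its C-terminal double-stranded RNA binding domains. The number of plants in a library, and the cdf2 allele, are not given in the sources used here. Each genotype had 1 library, so no difference has a replicate check, every interval covers counting error only, and genotype cannot be told apart from library preparation. Neither transcript of the mutated genes is measured in these files, so the labels could not be checked that way.

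The totals in the deposited tables were 14406060 reads for cdf2, 9443719 for dcl1-9 and 14073145 for Col, so that 1 read stood for 0.0694, 0.106 and 0.0711 RPM, the reads per 1000000 of that total. Reads summed over all miRNA rows came to 5248526 in cdf2, 378685 in dcl1-9 and 8833288 in Col. Rows that share a sequence hold equal or nearly equal counts, such as 31720 in Col for both miR172a and miR172b. This sum, called the miRNA reads below, thus counts such reads more than once. Shares of it are therefore not shares of distinct reads. The row names of the dcl1-9 file are partly later ones: 34 of the 48 rows were joined by name and 5 by a later name with the same Col count. The other 9 (miR2111a*, miR2111b*, miR3434*, miR773b*, miR774b*, miR830*, miR844*, miR5014-5p and miR833-3p) have no dcl1-9 value here.

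In plants DCL1, with HYL1 and SERRATE, cuts a short duplex out of the miRNA hairpin. One strand, the guide, is kept in an ARGONAUTE protein and directs silencing of target mRNAs, and the other strand, the star, is usually released and degraded. The base at the 5′ end is one of the features by which ARGONAUTE proteins sort strands, with U favoured by AGO1, A by AGO2 and AGO4 and C by AGO5. Star strands are normally the rarer ones, and hairpins from which both strands accumulate are known exceptions.

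The strands on which the results turn follow, because these pairs differ in which strand is abundant and in whether a strand belongs to 1 hairpin or more. Sequences are from RefSeq (TAIR10.1) and are written 5′ to 3′, with the seed, bases 2 to 8, in capitals. RefSeq entries could be matched for 43 of the 48 rows. miR172b guides silence AP2-like flowering and floral organ genes, miR169 guides silence NF-YA genes, and miR2111 is known for induction by phosphate starvation.
miR172b*: gCAGCACCauuaagauucac
miR172b guide: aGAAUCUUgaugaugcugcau
miR169g*: uCCGGCAAguugaccuuggcu
miR169g guide: uGAGCCAAggaugacuugccg
miR841b*: cAAUUUCUagugggucguauu
miR841b guide: uACGAGCCacuggaaacugaa
miR2111a*: gUCCUCGGgaugcggauuacc
miR2111b*: aUCCUCGGgauacaguuuacc
miR2111a and miR2111b guide: uAAUCUGCauccugagguuua
miR863-3p: uUGAGAGCaacaagacauaau
miR863-5p: uUAUGUCUuguugaucucaau

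The miR172b hairpin lies outside protein-coding genes on chromosome 5, with the star at chr5:1188278-1188297 on the minus strand, 46 bases from its guide at chr5:1188211-1188231. The same 20 bases are the 5p strand of miR172e at chr5:23988484-23988503, and the guide sequence is also that of miR172a. The star of miR169g, at chr4:11483034-11483054, also occurs in the miR169d hairpin at chr1:20039503-20039523, and its guide is shared with miR169d, miR169e and miR169f. The star of miR841b, at chr4:2184420-2184440, also occurs in the miR841a hairpin at chr4:7885298-7885318, while its guide occurs at 1 place only. The miR2111a and miR2111b stars share the seed UCCUCGG and differ after it, and each occurs at 1 place (chr3:2854394-2854414 and chr5:400464-400484), whereas their guides are the same sequence. Reads of a strand that occurs in more than 1 hairpin cannot be told apart by hairpin. The miR172b guide is shared with the miR172a hairpin, and the miR169g guide with those of miR169e and miR169f, which do not hold these stars. The ratios of miR172b and miR169g are thus not those of 1 duplex. Nor are those of miR841b, miR2111a and miR2111b, since the miR841b star and the miR2111 guide each occur in more than 1 hairpin. The miR863 hairpin, at chr4:7846644-7846855 from the 5p to the 3p strand, has 1 place for each strand.

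As a group these strands were rare. In cdf2, 36 of 48 rows had reads, in dcl1-9 8 of 39 and in Col 38 of 48. The median row had 4.5 reads in cdf2, 0 in dcl1-9 and 7.5 in Col, beside 42, 1 and 38.5 for the 280 other rows. Only 8 rows in cdf2, none of the 39 joined rows in dcl1-9 and 8 rows in Col reached 100 reads. All 48 rows together held 6225 reads in cdf2 (0.119% of the miRNA reads) and 4097 in Col (0.0464%), and the 39 joined rows 32 in dcl1-9 (0.00845%). One strand, miR172b*, supplied 57.0% of these reads in cdf2, 40.6% in dcl1-9 and 31.1% in Col. Without it the sums were 2678 reads (186 RPM) in cdf2, 19 (2.01 RPM) in dcl1-9 and 2822 (201 RPM) in Col, an alternative chosen after seeing the data. As a share of the miRNA reads these were 0.0510% in cdf2, 0.00502% in dcl1-9 and 0.0319% in Col. Without miR172b*, the sum in cdf2 was thus below that in Col in RPM but above it as a share of the miRNA reads.

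**Figure D1:**
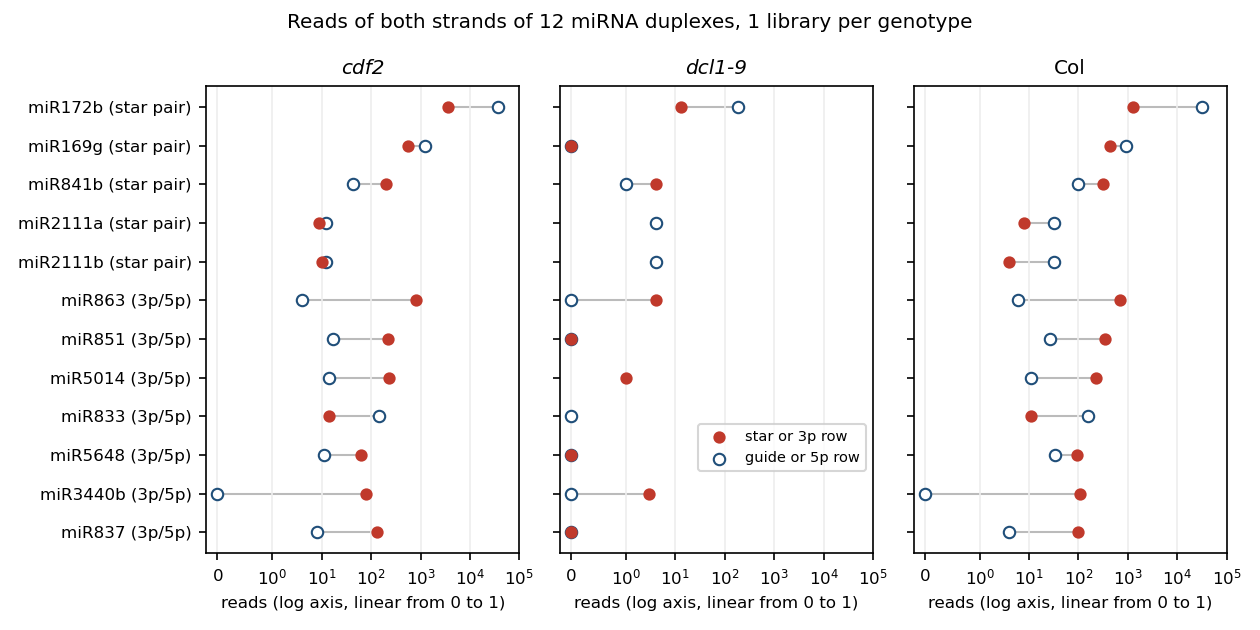
Reads (x axis, logarithmic above 1 read) of the star or 3p row (filled) and of the guide or 5p row (open) of 12 duplexes in cdf2, dcl1-9 and Col, 1 library each. Filled points lie left of open ones for most star pairs but right of them for miR841b and for all 3p/5p pairs except miR833 in cdf2 and Col; in dcl1-9 the strands of miR169g, miR851, miR5648 and miR837 coincide at 0, no filled point lies above 13 reads, and a missing point is a row that could not be joined.

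Among the star pairs, miR172b had the most reads and the lowest ratio of the pairs with at least 10 guide reads in Col. Its star had 3547 reads in cdf2, 13 in dcl1-9 and 1275 in Col, and its guide had 37394, 189 and 31720 reads. The star to guide ratio was 0.0949 in cdf2 (95% Clopper-Pearson interval 0.0916 to 0.0982), 0.0688 in dcl1-9 (0.0360 to 0.120) and 0.0402 in Col (0.0380 to 0.0425). The intervals of cdf2 and Col do not overlap, and that of dcl1-9 contains both.

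The ratio was 2.36-fold higher in cdf2 than in Col (95% exact interval of the odds ratio 2.21 to 2.52). In RPM the star was 2.72-fold higher in cdf2 (2.55 to 2.90), at 246 RPM in cdf2 and 90.6 RPM in Col, whereas the guide stood at 1.15-fold (1.13 to 1.17), at 2596 RPM in cdf2 and 2254 RPM in Col. Over the 5 scales tried (the table totals, the study's totals, the sum of miRNA reads, TMM and DESeq2's factors) the star lay between 2.59 and 4.68 and the guide between 1.10 and 1.98, and the guide was called higher with the sum of miRNA reads. The star thus differed between the libraries more than its guide did. The other miR172 guide rows had folds of 1.27 for miR172c, 1.27 for miR172d and 1.19 for miR172e. The guide reads of both hairpins that hold the star sequence, miR172b and miR172e, were also summed, a choice made after seeing the data. The ratio change was then 2.36-fold (2.21 to 2.52). This sum could hardly move the ratio, since the miR172e row had few reads beside the miR172b row. Reads of the miR172a hairpin, which does not hold the star, cannot be separated from the guide row, so their effect was not tested. If libraries of 1 genotype are assumed to vary with a coefficient of variation of 0.2, the interval of the change was 1.35 to 4.12, and at 0.4 it was 0.777 to 7.17, which includes 1.

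miR169g was a pair in which both strands were plentiful. The star had 566 reads in cdf2, 0 in dcl1-9 and 441 in Col, and the guide had 1216, 0 and 934. The ratios were 0.465 in cdf2 (0.421 to 0.515) and 0.472 in Col (0.421 to 0.529). The star thus held 31.8% of the reads of both rows in cdf2 and 32.1% in Col. The guide sequence is also in the miR169e and miR169f hairpins, which do not hold the star. The change of the ratio was 0.986 (0.845 to 1.15), the narrowest interval after that of miR172b. This interval covers counting error only, so it does not bound a change between the genotypes. With an assumed coefficient of variation of 0.2 between libraries the interval was 0.555 to 1.75, and at 0.4 it was 0.322 to 3.02. Both strands stood at nearly equal folds in cdf2, 1.25 for the star and 1.27 for the guide. Neither is past 1.5 on this scale, but both were called higher with TMM (1.60 and 1.63), with DESeq2's factors (1.60 and 1.62) and with the sum of miRNA reads (2.16 and 2.19).

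miR841b was the pair whose star outnumbered its guide in all 3 libraries. The star had 197 reads in cdf2, 4 in dcl1-9 and 308 in Col, and the guide had 44, 1 and 99. The ratio was 4.48 in cdf2 (3.22 to 6.36), 4 in dcl1-9 (0.396 to 197) and 3.11 in Col (2.47 to 3.94). Only in cdf2 and Col does the interval exclude 1. The change of the ratio in cdf2, 1.44-fold, has an interval that includes 1 (0.952 to 2.20). Both strands had fewer reads in cdf2, the star by a fold of 0.625 (0.520 to 0.750) and the guide by 0.434 (0.297 to 0.625). Scaled by the sum of miRNA reads neither was called, at 1.08 for the star and 0.748 for the guide (0.512 to 1.08). Since the star sequence is also in the miR841a hairpin, its reads were set against both guides, the miR841 row (71 reads in cdf2, 0 in dcl1-9 and 81 in Col) and the miR841b row together, which was decided after seeing the data. The ratio was then 1.71 in cdf2 and 1.71 in Col, with a change of 1.001 (0.738 to 1.36).

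The miR2111 stars were near the level of their shared guide in cdf2 and below it in Col. miR2111a* had 9 reads in cdf2 and 8 in Col, miR2111b* had 10 and 4, and the guide row of each had 12 and 32. The ratios were 0.750 in cdf2 and 0.250 in Col for miR2111a, and 0.833 in cdf2 and 0.125 in Col for miR2111b. The change was 3-fold for miR2111a (0.801 to 11.2) and 6.67-fold for miR2111b (1.502 to 33.7), and with both stars summed over the shared guide, chosen after seeing the data, 4.22-fold (1.43 to 12.7). The guide was lower in cdf2, at 0.366-fold (0.172 to 0.731), a call lost with the sum of miRNA reads as the scale (0.631, 0.296 to 1.26), while the intervals of both stars, at 1.10-fold (0.376 to 3.27) and 2.44-fold (0.704 to 10.7), include 1. In dcl1-9 the guide row of each had 4 reads. These values rest on 4 to 32 reads a row.

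The remaining star pairs were near or at 0. miR830* had 1 read in cdf2 and 7 in Col, against 6 and 8 of its guide, and miR844* had 2 and 6 against 6 and 8. miR3434* had 0 reads in cdf2 and 1 in Col, against 1 and 0, and neither strand of miR773b or miR774b had a read in cdf2 or Col. Over the 5 star pairs with at least 10 guide reads, the median ratio was 0.750 in cdf2 (range 0.0949 to 4.48) and 0.250 in Col (0.0402 to 3.11). In both libraries this median is the ratio of miR2111a alone, from 9 star and 12 guide reads in cdf2 and 8 and 32 in Col. The miR2111a and miR2111b pairs also share their guide reads. With at least 100 guide reads, which leaves miR172b and miR169g in cdf2 and Col, the median was 0.280 in cdf2 and 0.256 in Col. In dcl1-9 miR172b alone met that minimum.

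**Figure D2:**
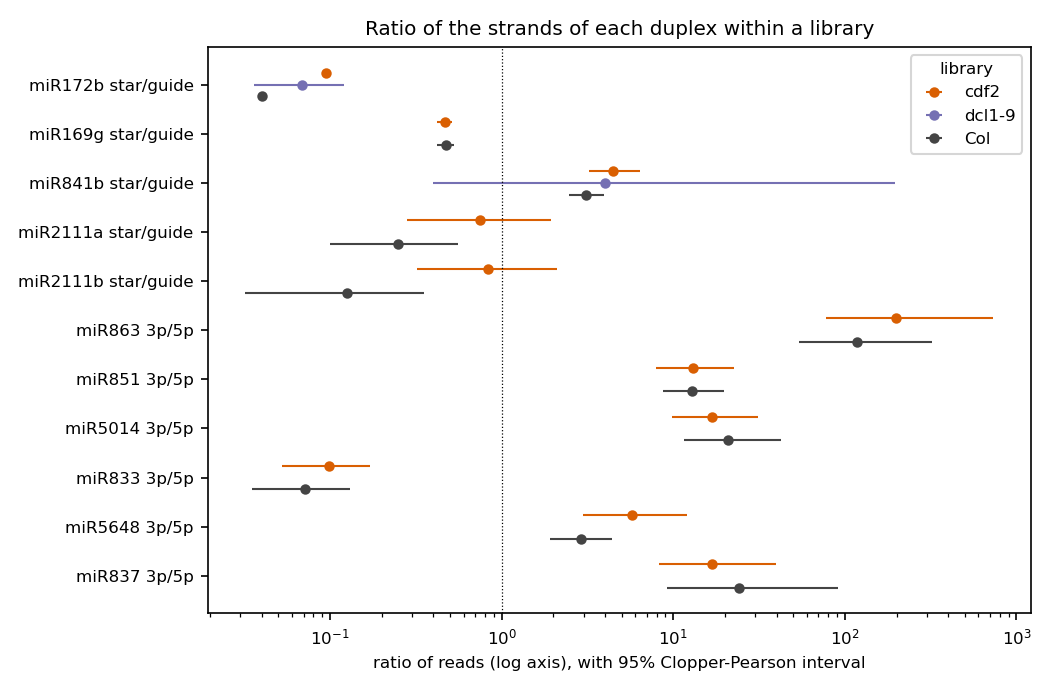
Ratio of star to guide reads, or of 3p to 5p reads (x axis, logarithmic), for 11 pairs in cdf2 (orange), dcl1-9 (violet) and Col (black), with 95% Clopper-Pearson intervals; a pair with 0 reads of a strand has no point. The points span a range from 0.0402 for miR172b in Col to 199.5 for miR863 in cdf2, and cdf2 and Col lie close together for most pairs.

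In the pairs of a 3p and a 5p row, 1 strand usually held nearly all reads, and which one differed between miRNAs. The 3p row had more reads in 9 pairs in cdf2 and 10 in Col, and the 5p row in 9 and 8. miR863 was the most one-sided pair with reads of both strands. Its 3p strand, which is known to target the kinase genes ARLPK1 and ARLPK2 and also SERRATE, had 798 reads in cdf2, 4 in dcl1-9 and 707 in Col, against 4, 0 and 6 reads of the 5p strand. The ratio was 199.5 in cdf2 (77.6 to 734) and 118 in Col (53.9 to 322), a change of 1.69-fold with an interval of 0.4 to 8.19. Of the 20 facing bases in that duplex, 19 are Watson-Crick pairs and 1 is a mismatch.

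miR851, miR5014, miR837 and miR5648 also had more 3p than 5p reads. miR851 had 220 3p and 17 5p reads in cdf2, none of either in dcl1-9, and 347 and 27 in Col, and its ratios of 12.9 and 12.9 in cdf2 and Col gave a change of 1.01 (0.515 to 2.02). miR5014, whose strands lie in an exon of GAD2 outside the coding sequence, had 234 3p and 14 5p reads in cdf2 and 230 and 11 in Col. Its change was 0.799 (0.321 to 1.94), and its 3p strand had 1 read in dcl1-9. Neither pair differed between cdf2 and Col beyond its counting interval.

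miR837, in an intron of NRT1.9, had 134 3p and 8 5p reads in cdf2, 0 of both in dcl1-9, and 97 and 4 in Col, with a change of 0.691 (0.148 to 2.67). miR5648 had 63 and 11 in cdf2, 0 of both in dcl1-9, and 95 and 33 in Col, with ratios of 5.73 and 2.88 in cdf2 and Col and a change of 1.99 (0.897 to 4.68). miR5648 has 9 Watson-Crick pairs among 21 facing bases when the annotated strands are laid against each other without gaps. miR3440b stood at 1 extreme, with 78 3p reads in cdf2, 3 in dcl1-9 and 109 in Col and 0 reads of the 5p strand in each. A count of 0 allows up to 3 reads, or 0.208 RPM in cdf2 and 0.213 RPM in Col.

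miR833 was the opposite case, with 14 3p and 142 5p reads in cdf2 and 11 and 154 in Col. Its ratio was 0.0986 in cdf2 (0.0526 to 0.171) and 0.0714 in Col (0.0349 to 0.131), a change of 1.38 (0.561 to 3.48), and the 5p strand had 0 reads in dcl1-9. Other pairs led by the 5p strand had fewer reads. miR832 had 0 3p and 36 5p reads in cdf2 and 2 and 50 in Col, miR866 had 0 and 33 in cdf2 and 0 and 42 in Col, and miR864 had 3 and 32 in cdf2 and 1 and 34 in Col. In dcl1-9 the 5p strand of miR864 had 3 reads, and miR832 and miR866 had none.

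Among the rest, miR835 had 12 3p and 1 5p reads in cdf2, 3 and 0 in dcl1-9, and 12 and 3 in Col. miR862 had 5 and 0 in cdf2 and 11 and 8 in Col, and miR861 had 4 and 10 in cdf2 and 3 and 15 in Col. The pairs miR2112, miR2934, miR5024, miR865 and miR868 had between 0 and 12 reads in every row, and miR447c, whose family silences a 2-phosphoglycerate kinase gene, had none in any library. At these counts a change of the ratio was not detectable.

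The leading strand was nearly always the same in cdf2 and Col, in 24 of the 26 pairs with a leading strand in both. The others were miR2112, with 0 3p and 3 5p reads in cdf2 and 2 and 1 in Col, and miR3434, with 0 star and 1 guide read in cdf2 and 1 and 0 in Col. Both rest on 3 reads or fewer a row.

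A change of the strand ratio was called where it was at least 1.5-fold and its interval excluded 1, in pairs with at least 10 reads of each strand summed over both libraries. In cdf2 against Col, 11 pairs met the minimum and 2 were called (18.2%), miR172b and miR2111b, both with a higher ratio in cdf2. These 11 are all the pairs that could be tested in the files, so there is no other background for the ratio. The remaining 9 changes ran from 0.691 for miR837 to 3-fold for miR2111a, each with an interval that includes 1. In dcl1-9 against Col, 5 pairs met the minimum, and 3 of them (miR169g, miR5648 and miR851) had 0 reads of both strands in dcl1-9. No pair was called (0% of 5). The change was 1.71 for miR172b (0.892 to 3.01) and 1.29 for miR841b (0.125 to 63.9), so that at this depth a change of the ratio as large as that of miR172b in cdf2 lies within both intervals.

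**Figure D3:**
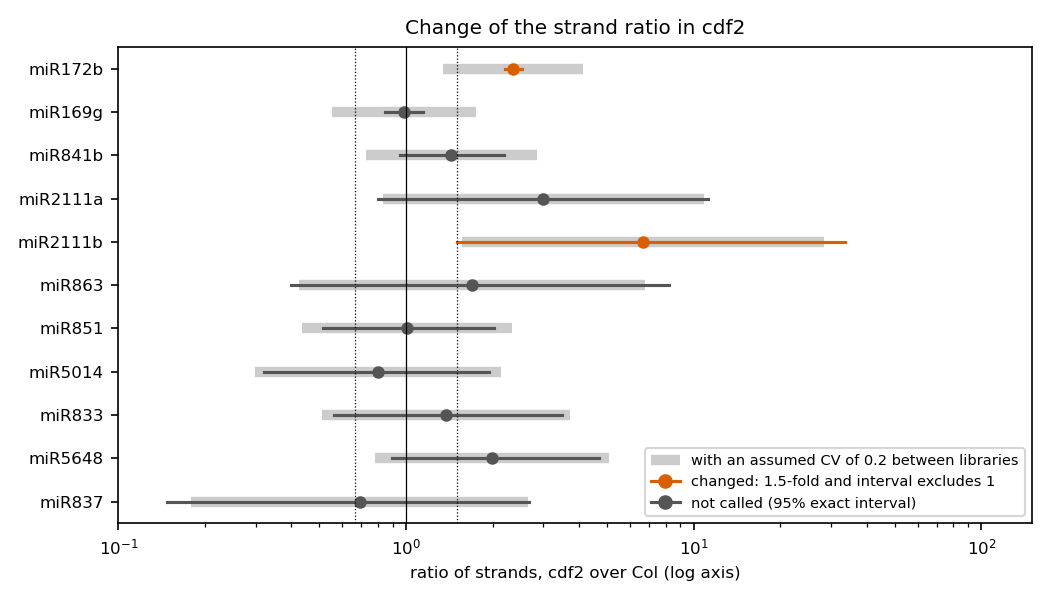
Change of the strand ratio, cdf2 over Col (x axis, logarithmic), for the 11 pairs with at least 10 reads of each strand. Points are odds ratios, thin lines their 95% exact intervals, grey bars the intervals with an assumed coefficient of variation of 0.2 between libraries, and dotted lines mark 1.5-fold in either direction; only miR172b (2.36) and miR2111b (6.67) have intervals from counting that exclude 1.

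The level of each strand was compared apart from its partner. In cdf2 against Col, 26 of the 48 rows had at least 10 reads over both libraries. Of these 4 were lower, 1 was higher and 21 were not called, beside 26.1% lower and 8.7% higher among all 230 miRNA rows tested. The median fold of the 26 rows was 0.834, beside 0.794 for all 230. The higher one was miR172b*. The lower ones were miR841b* (0.625, 0.520 to 0.750), miR851-3p (0.619, 0.521 to 0.735), miR5648-3p (0.648, 0.463 to 0.900) and miR5648-5p (0.326, 0.148 to 0.660). Of these intervals only that of miR5648-3p contains the median of all rows, 0.794, and the others lie below it. Using the miRNA reads in place of the library totals as the scale raises every log2 fold by 0.78. By that scale miR841b*, miR851-3p and miR5648-3p stood above 1, at 1.08, 1.07 and 1.12, and miR5648-5p stood at 0.561. On that scale 3.04% of all 230 rows were lower and 37.8% higher. miR863-3p, at 1.10 by the table totals, lay between 1.05 and 1.90 over the 5 scales.

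**Figure D4:**
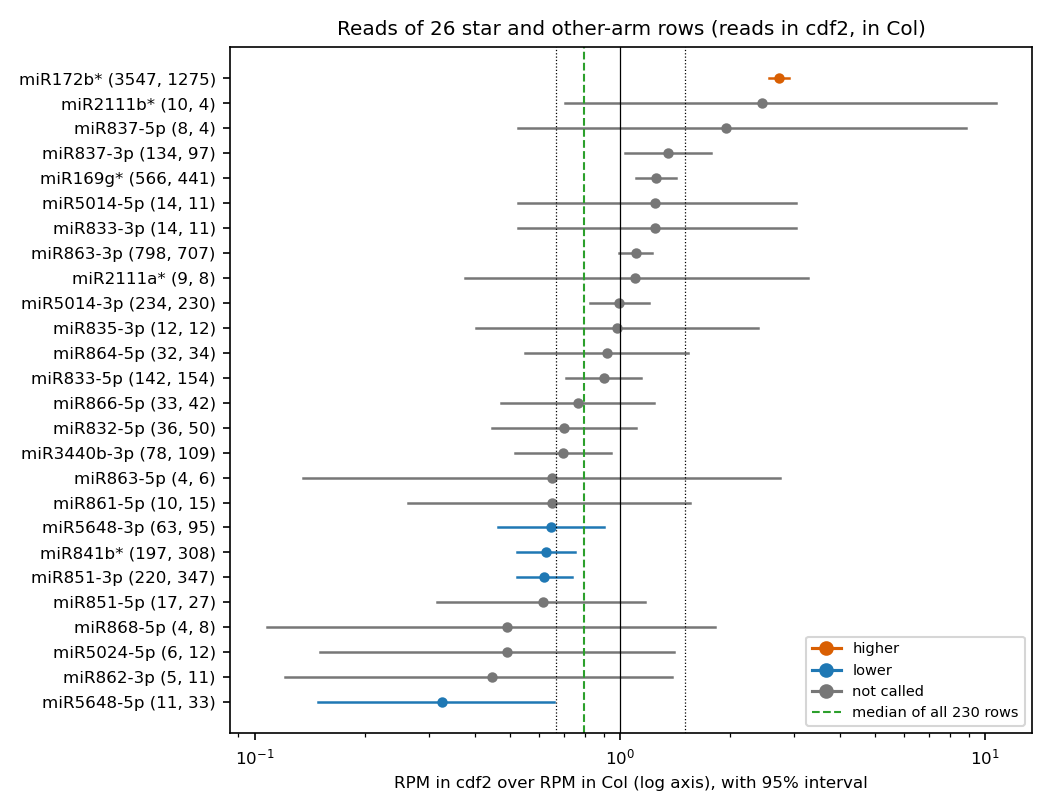
RPM in cdf2 over RPM in Col (x axis, logarithmic) with 95% counting intervals for the 26 star and other-arm rows with at least 10 reads, each named with its reads in cdf2 and in Col. miR172b* (2.72) is the one row called higher, 4 rows are called lower, and the dashed line is the median of all 230 miRNA rows (0.794).

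In dcl1-9 most strands were at or near 0 reads. Of 19 rows tested, 18 were lower than in Col and none was higher, beside 97.1% lower and 0% higher among all 204 rows, which is near the share in these strands. With the sum of miRNA reads as the scale, 9 of the 19 were lower and 1, miR835-3p, was higher, beside 36.8% and 14.2% of all rows. That sum equalled 4.01% of the table total in dcl1-9 and 62.8% in Col, so this scale largely takes out a fall shared by most rows. Of the 19, 11 had 0 reads in dcl1-9, with folds of at least 2.46-fold lower (miR862-3p) to at least 98.6-fold lower (miR169g*), set by the limit of 3 reads that a count of 0 allows. The strands that still had more than 3 reads were miR172b*, at 13 reads in dcl1-9 against 1275 in Col (fold 0.0152, 0.00807 to 0.0261), miR841b*, at 4 against 308 (0.0194, 0.00524 to 0.0501), and miR863-3p, at 4 against 707 (0.00843, 0.00229 to 0.0217). By the table totals miR835-3p, with 3 reads against 12, was the one row not called (0.373, 0.0675 to 1.38). In all, 16 of the 19 rows (84.2%) had 3 reads or fewer in dcl1-9, beside 88 of the 133 other rows (66.2%) in the same range of Col reads, 11 to 1275.

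The sequences themselves were compared as a description. Of the 5 star rows with a RefSeq entry, 1 starts with U, 1 with A, 1 with C and 2 with G, whereas 4 of their 5 guide rows start with U and 1, that of miR172b, with A. The abundant stars differ in this respect, with G in miR172b*, U in miR169g* and C in miR841b*. Among the 43 matched rows 53.5% start with U, beside 62.6% of 203 other rows, and 35 are 21 bases long. In 19 pairs with at least 10 reads in Col and a RefSeq entry for both strands, the more abundant strand starts with U in 12 and the less abundant one in 11. Only the more abundant strand has U in 4 of them, only the less abundant one in 3, both in 8 and neither in 4. The 4 with U on the more abundant strand only include miR2111a and miR2111b, whose guide is the same sequence. miR830 and miR844 met the minimum of reads but had no matched entry.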

How the data were processed

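Small RNAs of cdf2, dcl1-9 and Col seedlings were sequenced, 1 library each. The authors used Bowtie and the hairpin set of miRBase 15, then miRNA database version 16, and deposited unnormalized read counts for each miRNA. The labels name TAIR10. How a read that fits several miRNAs was counted is not given in the sources used here. Rows of 1 sequence held equal or nearly equal counts, so such reads appear to have been counted in each of them. The miR172a and miR172b rows, for instance, both had 37394 reads in cdf2 and 31720 in Col. The tables the authors deposited also hold RPM values, library totals, fold changes and p-values. Only the totals and the read numbers were used, the read numbers to check the counts and join names.

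Counts were divided by the totals in those tables. The study's stated totals, DESeq2's size factors, edgeR's TMM and the summed miRNA reads were alternatives, as were other read minimums, a 2-fold limit, 1 read added to each count, and assumed coefficients of variation of 0.2 and 0.4. Summed miR2111 stars, the guides of both hairpins, and the sum without miR172b* were chosen after seeing the data. Ratios within a library have Clopper-Pearson intervals, changes of ratios conditional exact intervals, all at 95%. Those with an assumed coefficient of variation are approximate on the log scale and can be narrower than the exact ones at low reads. Reads carry no molecular identifiers and are not independent molecules. Later names in the dcl1-9 file were accepted only where the Col count was equal.

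Pairs were named that had at least 100 reads of a star or other-arm row over the 3 libraries, or were among the 3 largest changes each way in a mutant among pairs with 10 reads of each strand; miR393b*, miR171a*, miR396a* and miR390a* were also listed and have no row in the files used. Other pairs were named to account for every row. Members, lists and tests were chosen with earlier results of these data known. The intervals were tested on simulated data with counting error only, so that test says nothing on variation between libraries. Python 3.11.15, scipy 1.17.1, pandas 2.3.3, R 4.3.3, edgeR 4.0.16 and DESeq2 1.42.0 were used.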

Additional observations from a re-analysis of the deposited data

How the results depend on the processing

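Every value rests on 1 library per genotype, and low rows on few reads. The 2 changes of the ratio called in cdf2 became 1 with at least 100 reads of each strand (3 pairs left) and 1 with an assumed coefficient of variation of 0.4, where miR2111b was called (1.17 to 37.8) and miR172b (2.36) was not. With both stars over the shared guide, the change of miR2111a was called at 4.22. The median star to guide ratio in cdf2 was 0.280 over 2 pairs with at least 100 guide reads, beside 0.256 in Col over 2 pairs. With 1 guide read as the minimum it was 0.399 in cdf2 (8 pairs), 2.03 in dcl1-9 (2 pairs) and 0.472 in Col (7 pairs), so its order among libraries depends on the minimum.

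Counts of strands lower or higher depend on the scale. TMM raised the log2 fold of all rows by 0.35 in cdf2 and 4.61 in dcl1-9, DESeq2's size factors by 0.35 and 4.18 and the sum of miRNA counts by 0.78 and 3.97. The study's totals moved it by -0.07 and -0.76. In cdf2, of 26 strands, 0 were lower with the sum of miRNA counts (3.04% of all 230 rows), 1 by TMM, 1 by the DESeq2 factors and 1 with a 2-fold limit (9.13% of all rows in each). Those higher were 7 with the sum (37.8% of all rows) and 3 by TMM and 3 by those factors (22.2% in each). In dcl1-9, of 19 strands, 9 were lower with the sum (36.8% of all 204 rows), 6 by TMM (28.9%) and 7 by the DESeq2 factors (34.8%), and 8 of 8 with at least 100 reads (99.2% of 120 rows). The sum, TMM and the DESeq2 factors are set by the miRNA rows themselves, so they largely take out a fall shared by most rows. They therefore cannot show whether such a fall occurred. The miRNA reads equalled 4.01% of the table total in dcl1-9 and 62.8% in Col. With the sum, TMM and the DESeq2 factors 1 strand was higher, miR835-3p, beside 14.2%, 20.1% and 14.2% of all rows. It had only 3 reads in dcl1-9 and 12 in Col, and by the table totals its fold was 0.373 (0.0675 to 1.38). Ratios do not depend on the scale. No paired analysis was possible because each genotype has 1 library.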
